A study of Mus musculus with 3 samples.

Results

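Fn1 encodes fibronectin, and the Fn1 regions described here are all regions of the odd-pool and even-pool ChIRP-seq lists that overlap the gene by at least 1 bp. There were 26 such regions among 2112 in the odd pool and 10 among 345 in the even pool. The gene was chosen by its scores in these same lists, since it holds the highest score of the odd pool, so its number of regions and their scores are descriptions, and no test was run on them. ChIRP-seq pulls down an RNA with biotinylated antisense probes and sequences the DNA that is recovered with it. The RNA was PAM (PAM-1 in the sample labels), a nuclear lncRNA of satellite cells that is transcribed from a super-enhancer. Both pools were hybridized to lysates of ASCs, activated satellite cells, which were sorted from the hindlimb muscle of Tg:Pax7-nGFP mice and grown on Matrigel-coated dishes with horse serum and FGF. This transgene marks nuclei with GFP in cells that express Pax7. The strain is taken from the study's methods. The labels name no other allele and no treatment, and the age and number of the mice are not given in them. Cells were crosslinked with glutaraldehyde, and 1 library was made per pool, so the values carry no error between replicates. Input DNA was not analysed here. The deposited lists hold a score of at least 4 for each region, whose meaning is not stated, and neither read counts nor expression, so the depth and the identity of the cells could not be checked.

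Fibronectin is a large secreted glycoprotein that cells assemble into fibrils of the extracellular matrix. It is built from type I, type II and type III repeats, with binding sites for fibrin, collagen and heparin, and integrins bind it through an Arg-Gly-Asp motif in the tenth type III repeat. Splicing of a single gene includes or skips the type III repeats EIIIB and EIIIA and parts of a variable region. In muscle, fibronectin is a component of the niche of satellite cells during regeneration.

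In the GENCODE M1 annotation of mm9, Fn1 (ENSMUSG00000026193.8) is transcribed from the minus strand of chromosome 1, spans 67.7 kb and reaches from 71632094 to 71699774. Its 3 annotated transcripts are all coding. Exons are numbered here along Fn1-201, which has the longest coding sequence, with 46 exons, a spliced length of 8312 nt and 2477 codons. Exon 25 (EIIIB, 273 bp) is in Fn1-201 only, and exon 33 (EIIIA, 270 bp) is in Fn1-201 and Fn1-203 but not in Fn1-202. All exons together covered 12.3% of the gene span and introns covered 87.7%.

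The midpoint of every region was on an exon of Fn1, 26 of 26 in the odd pool and 10 of 10 in the even pool. In the whole lists, 79.5% of the odd regions and 57.4% of the even regions had their midpoint on an annotated exon. The whole lists are not limited to gene spans, as the Fn1 regions are. The share over regions within genes is not given here, so the shares are not alike. The gene's introns, which make up most of its length, held 0 midpoints of either pool. No exon held more than 1 region of the same pool, and 28 of the 46 exons held a region of at least 1 pool. The odd regions lay over 59.2% of the spliced transcript and over 2.84% of the intron bases. In the even pool these shares were 23.5% and 0.892%, and both pools together covered 67.4% of the transcript.

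The sequences of 8 regions show how the regions sit on the exons. They were read from mm9 on the strand of the transcript, 5′ to 3′, with exon bases in capitals and intron bases in lower case. The region on exon 15 is the best centred of those printed, and the regions on exons 25 and 33 lie on the alternatively spliced repeats. Exons 30 and 40 hold Arg-Gly-Asp codons. The region on exon 46 carries the highest score, and only its intron and coding bases are shown. The regions on exons 6 and 14 were found in the even pool only.
Exon 6, even pool, chr1:71692057-71692304: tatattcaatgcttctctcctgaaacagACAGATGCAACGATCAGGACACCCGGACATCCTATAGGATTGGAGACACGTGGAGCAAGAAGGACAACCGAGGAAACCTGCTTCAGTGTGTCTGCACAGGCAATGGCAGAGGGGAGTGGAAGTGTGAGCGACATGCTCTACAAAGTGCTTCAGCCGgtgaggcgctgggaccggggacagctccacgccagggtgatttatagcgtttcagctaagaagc
Exon 14, even pool, chr1:71676206-71676453: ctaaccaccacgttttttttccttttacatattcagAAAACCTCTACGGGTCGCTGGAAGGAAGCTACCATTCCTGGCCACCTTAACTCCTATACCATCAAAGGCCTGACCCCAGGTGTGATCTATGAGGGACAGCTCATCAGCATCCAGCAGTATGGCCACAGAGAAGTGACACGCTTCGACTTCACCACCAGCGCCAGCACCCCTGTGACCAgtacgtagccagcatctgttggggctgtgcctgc
Exon 15, odd pool, chr1:71675851-71676104: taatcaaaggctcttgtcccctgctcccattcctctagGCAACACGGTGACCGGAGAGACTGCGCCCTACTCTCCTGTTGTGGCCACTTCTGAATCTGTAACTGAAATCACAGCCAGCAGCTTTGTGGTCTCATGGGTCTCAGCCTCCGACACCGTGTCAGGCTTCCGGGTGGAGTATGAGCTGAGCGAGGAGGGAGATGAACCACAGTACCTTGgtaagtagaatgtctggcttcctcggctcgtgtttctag
Exon 25, odd pool, chr1:71660372-71660625: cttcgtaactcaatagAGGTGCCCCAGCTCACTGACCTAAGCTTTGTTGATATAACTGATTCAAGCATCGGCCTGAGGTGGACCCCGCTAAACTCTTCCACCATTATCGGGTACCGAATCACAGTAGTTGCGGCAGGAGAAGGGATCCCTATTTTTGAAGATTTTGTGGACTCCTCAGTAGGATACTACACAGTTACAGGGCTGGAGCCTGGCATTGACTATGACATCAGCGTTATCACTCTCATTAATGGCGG
Exon 30, odd pool, chr1:71653235-71653488: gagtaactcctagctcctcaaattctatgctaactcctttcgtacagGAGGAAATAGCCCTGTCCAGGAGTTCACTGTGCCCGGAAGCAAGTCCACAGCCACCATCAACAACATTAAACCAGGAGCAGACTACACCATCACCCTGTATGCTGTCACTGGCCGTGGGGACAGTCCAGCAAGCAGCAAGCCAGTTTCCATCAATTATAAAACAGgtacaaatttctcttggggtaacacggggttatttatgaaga
Exon 33, odd pool, chr1:71650292-71650545: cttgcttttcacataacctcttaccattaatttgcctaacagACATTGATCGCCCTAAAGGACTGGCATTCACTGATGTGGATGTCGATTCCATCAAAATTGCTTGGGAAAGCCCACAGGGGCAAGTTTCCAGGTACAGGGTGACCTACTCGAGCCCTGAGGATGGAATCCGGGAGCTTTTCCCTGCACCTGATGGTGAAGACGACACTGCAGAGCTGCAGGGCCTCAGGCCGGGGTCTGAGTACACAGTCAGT
Exon 40, odd pool, chr1:71643973-71644226: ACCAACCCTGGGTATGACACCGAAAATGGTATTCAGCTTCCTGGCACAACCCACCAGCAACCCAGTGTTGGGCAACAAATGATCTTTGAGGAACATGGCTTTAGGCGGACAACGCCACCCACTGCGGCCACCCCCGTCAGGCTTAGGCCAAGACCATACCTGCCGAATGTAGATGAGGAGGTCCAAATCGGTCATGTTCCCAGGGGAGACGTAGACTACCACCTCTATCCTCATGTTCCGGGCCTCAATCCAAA
Exon 46, odd pool, chr1:71632789-71632880: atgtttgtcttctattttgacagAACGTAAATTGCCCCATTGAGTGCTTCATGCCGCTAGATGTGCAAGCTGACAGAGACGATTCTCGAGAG

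The printed regions on exons 6, 14, 15 and 30 begin and end in introns and hold the whole exon between an ag and a gt. The same held for every odd region that contained a complete exon, of which there were 18. In each of these 18 the last 2 intron bases before the exon read AG and the first 2 after it read GT. These bases were read at the annotated exon borders, so they describe the annotation and not the recovery of the regions.

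**Figure D1:**
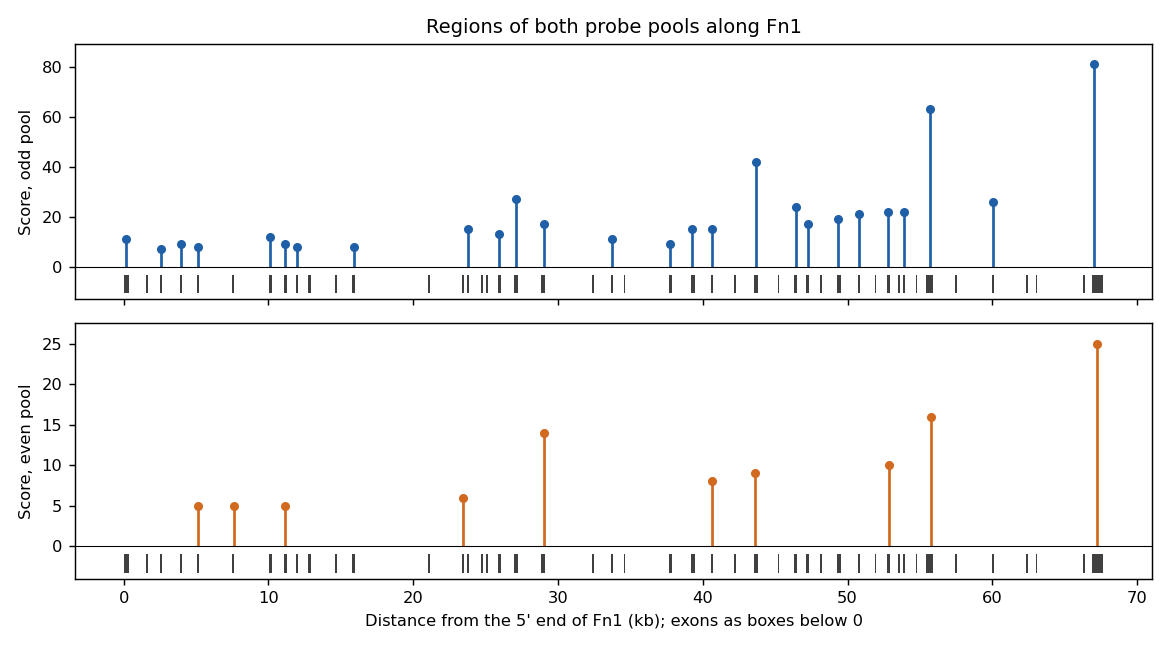
Scores of the regions of the odd pool (top, 26 regions) and the even pool (bottom, 10 regions) against the distance of their midpoint from the 5′ end of Fn1 in kb, with the 46 exons drawn as boxes below 0. Each stem is 1 region, the 2 axes have different ranges, and the highest stem of both pools, 81 and 25, stands over the last exon.

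Starting from the 5′ end, exon 1 holds the 5′ UTR and the first codons. An odd region with a score of 11 (chr1:71699482-71699735) was wholly exonic there, all 254 bases of it, and reached codon 25. The even pool had no region in exons 1 to 4. The N-terminal exons encode the repeats that bind fibrin and collagen. Odd regions lay on exons 3, 4, 5, 7, 8, 9 and 12 with scores from 7 to 12. Exon 3 had the lowest odd score of the gene, 7, which 70.2% of all odd regions do not exceed. The even pool had regions on exons 5, 6 and 8, each with a score of 5. Scores in this part of the gene were thus below the gene's own median of 15 in the odd pool and of 8.5 in the even pool.

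The central exons encode type III repeats. Exon 15 had an odd score of 15, exon 18 one of 13, exon 19 one of 27, exon 20 one of 17, exon 22 one of 11 and exon 24 one of 9. In the even list, exon 14 had a score of 6 where the odd pool had no region, and exon 20 had one of 14. The even region on exon 14 (chr1:71676206-71676453) and the odd region on exon 15 (chr1:71675851-71676104) were neighbours and did not overlap.

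The alternatively spliced exon 25, EIIIB, had an odd score of 15 (chr1:71660372-71660625), and exon 33, EIIIA, had an odd score of 19 (chr1:71650292-71650545). Neither held an even region. Exon 28, which also encodes a whole type III repeat, has 270 bp, is shared by all 3 transcripts and lies between them. Its odd score was 42 (chr1:71655988-71656241) and its even score 9. Exon 26, which follows EIIIB and has 183 bp, had an odd score of 15 and an even score of 8, and exon 34, which follows EIIIA and has 188 bp, had an odd score of 21. On the 5′ side, exon 24 had an odd score of 9, exon 32 had no region and exon 31 had an odd score of 17. The odd scores on both alternative exons thus lay between those of the nearest exons with a region on either side, or equalled the one that follows, and were lower than that of exon 28.

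The Arg-Gly-Asp motif of the integrin-binding site was placed by translating Fn1-201. It is encoded in exon 30 at codons 1614 to 1616, by CGTGGGGAC at bases 161 to 169 of the printed region. That region (chr1:71653235-71653488) had an odd score of 24 and contained all 165 bp of the exon. The even pool had no region there. Another Arg-Gly-Asp, at codons 2181 to 2183 in exon 40, lies within regions of both pools, with scores of 63 and 16. The Leu-Asp-Val motif at codons 2101 to 2103, in the variable region that exon 40 encodes, lay outside the regions of both pools, which began at codons 2114 and 2144. Another Leu-Asp-Val, at codons 2466 to 2468 in exon 46, lies within the odd region with the score of 81, at bases 57 to 65 of the printed sequence, and outside the even region.

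Downstream of exon 30, every odd score was at or above 17. Exon 31 had 17, exon 36 had 22, exon 38 had 22 and exon 42 had 26. The even score on exon 36 was 10. The second highest score of the gene in each pool was on exon 40, at 467 bp the longest internal exon. The odd region there (chr1:71643973-71644226) ranked 6 in its list and the even region (chr1:71643889-71644136) ranked 16. The last exon, with 761 bp, holds codons 2455 to 2477, the last of the protein, and the 3′ UTR. The odd region at its 5′ end (chr1:71632627-71632880) had the score of 81, the highest of the 2112 odd regions. The even region (chr1:71632396-71632643), wholly in the 3′ UTR, had a score of 25, which ranked 7 in its list.

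Over all Fn1 regions, odd scores ran from 7 to 81 with a median of 15, against a median of 6 over the odd list. All 26 were above that median. Even scores ran from 5 to 25 with a median of 8.5, against a median of 5 over the even list, and 7 of the 10 were above it. The lists may be scaled differently, and scores are set side by side between pools only in their order.

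Scores were higher toward the 3′ end of the transcript in both pools. The 15 odd regions upstream of the midpoint of the spliced transcript had scores from 7 to 27 with a median of 11, and the 11 downstream of it had scores from 15 to 81 with a median of 22. In the even pool, the 5 regions on each side had scores from 5 to 14 and from 8 to 25, with medians of 5 and 10. The ranges of both sides overlapped in each pool. The Spearman correlation of score with transcript position was 0.822 over the 26 odd regions, 0.799 over the 25 that remain without the last exon, and 0.914 over the 10 even regions. These points share 1 library per pool and are given without a p-value. Of the 25 exons upstream of the midpoint 15 held an odd region, and of the 21 downstream of it 11 did. Among exons from 132 bp to below 200 bp alone, these counts were 11 of 14 and 7 of 8.

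**Figure D2:**
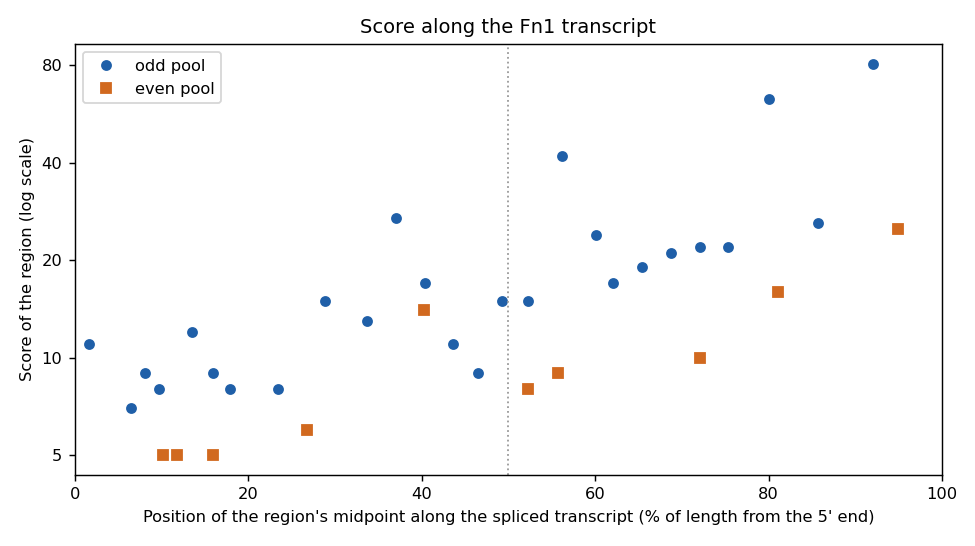
Score (log scale) of each Fn1 region against the position of its midpoint along the spliced transcript, in percent of its length from the 5′ end, with the midpoint dotted. Downstream of it all 11 odd regions (circles) score at least 15 and all 5 even regions (squares) at least 8, while scores upstream reach down to 7 and 5.

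Exon length went with the presence of a region and with its score. The shortest exon with an odd region had 132 bp and the shortest with an even region had 138 bp. Of the 16 exons shorter than 132 bp, 0 held a region of either pool. Of the 22 exons from 132 bp to below 200 bp, 18 held an odd region. All 8 exons of at least 200 bp did. Regions were assigned to exons by midpoint, and a longer exon has more bases on which a midpoint can fall. The counts are not given per base. These length classes were set after the values were seen. The limit of 132 bp was taken from the shortest exon with an odd region. The odd count of 0 below it was thus fixed. The 26 exons with an odd region had a median length of 181.5 bp, and the 20 without had a median of 115.5 bp and at most 178 bp. The 4 exons of at least 132 bp without an odd region were exons 6, 10, 14 and 41, and exons 6 and 14 held an even region.

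Odd scores had a median of 12.5 on the exons from 132 to below 200 bp and of 23 on the longer ones. The longer exons ranged from 11 to 81 and the shorter from 7 to 26, so the classes overlapped. Over the 26 odd regions, the Spearman correlation of score with exon length was 0.517. Over the 10 even regions it was 0.804, and 0.729 over the 9 on internal exons, where that with position was 0.881. The order along the transcript was also seen among exons of similar length. In the class from 132 to below 200 bp, the 11 odd regions upstream of the midpoint scored from 7 to 15 with a median of 9, and the 7 downstream from 15 to 26 with a median of 22. The correlation with position in this class was 0.865 and that with length 0.265, over 18 regions. Among all internal exons, length and exon number had a correlation of -0.097.

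**Figure D3:**
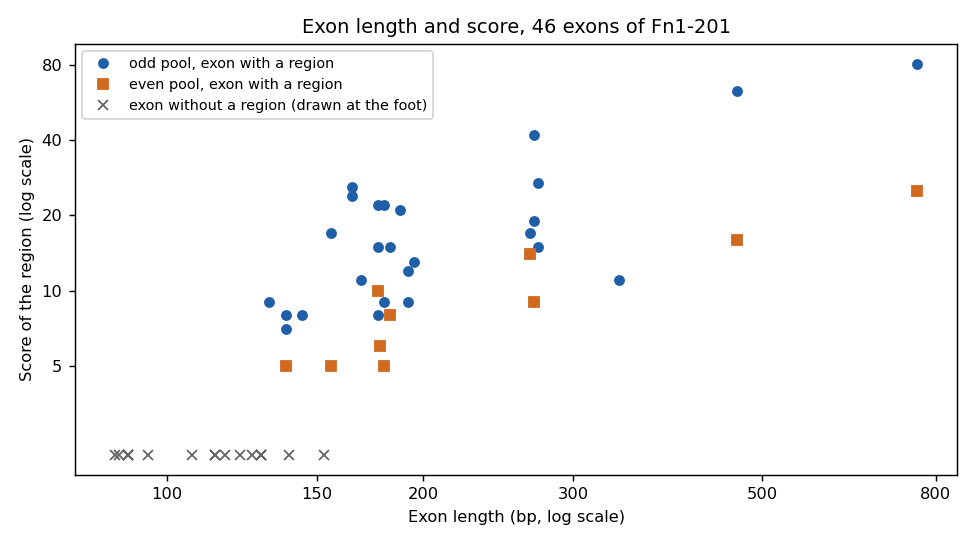
Score of the region on each exon against exon length, both on log scales, for the 46 exons of Fn1-201; circles are the odd pool, squares the even pool, and crosses at the foot mark the exons with no region. No exon shorter than 132 bp has a region, and the 2 longest exons have the highest odd scores, 63 and 81.

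Within the exons the regions were centred closely. Each odd region of Fn1 is 254 bp wide and could lie anywhere over a shorter exon. The 18 odd regions that contained a complete exon had their centre at a median of 3 bp from the centre of the exon, and at most 18 bp. On exon 5 the distance was 0 bp, and on exon 15 it was 0.5 bp. The 6 even regions that contained a complete exon were centred at a median of 9.25 bp and at most 34 bp from the exon's centre. Elsewhere in the odd list, 226 internal exons of at most 254 bp in other protein-coding genes held a region midpoint, with a median distance of 9 bp and 81.9% within 20 bp. Close centring was thus also measured in other genes.

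**Figure D4:**
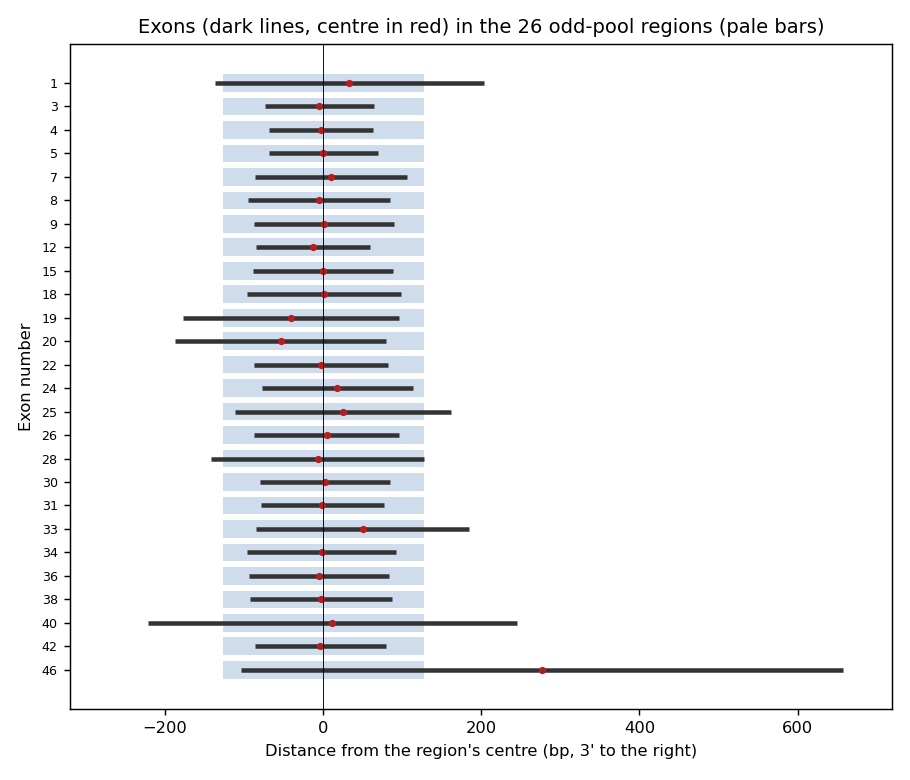
The 26 odd-pool regions of Fn1 (pale bars, 254 bp wide, aligned at their centres) with the exon under each midpoint (dark line, its centre in red), in bp from the region's centre with 3′ to the right. In 18 regions the whole exon lies inside the bar with its centre within 18 bp of the middle, while exon 46 extends far to the right.

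The pools had been hybridized separately, and the loci that both recovered were counted here. Of the 10 even regions of Fn1, 8 overlapped an odd region, against 42.6% of all even regions. From the other side, 8 of the 26 odd regions overlapped an even region, against 6.96% of all odd regions. These 8 loci were on exons 5, 8, 20, 26, 28, 36, 40 and 46, and made up 5.44% of the 147 loci that both pools share in the genome. The gene was picked at such a locus, so this count carries no test. The overlap ran from 17 bp on exon 46 to 248 bp on exons 26 and 36, with a median of 225.5 bp.

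The odd and even scores at these loci were 8 and 5 on exon 5, 9 and 5 on exon 8, 17 and 14 on exon 20, and 15 and 8 on exon 26. Further along they were 42 and 9 on exon 28, 22 and 10 on exon 36, 63 and 16 on exon 40, and 81 and 25 on exon 46. Both pools had their 2 highest scores on exons 40 and 46, and they differed most in order at exon 20, the third highest in the even pool, and at exon 28, the third highest in the odd pool. The Spearman correlation over the 8 loci was 0.898, and over all 147 shared loci it was 0.717. The 18 odd regions without an even partner had scores from 7 to 27 with a median of 14, and those with a partner a median of 19.5.

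Features that the choice of the gene did not use were also examined. Every 31-mer of all 36 regions occurs 1 time in mm9, so none of them lies in repeated sequence of the assembly. The study kept only unique alignments, which disfavours repeated sequence in both lists beforehand. The share over the whole lists is not given here. The GC content of the odd regions was from 46.9% to 66.5% with a median of 51.2%, against 49.6% over the odd list, and the highest value was on exon 1. The even regions had a median of 53.6% against 48.0% over their list. Each of the 6 probes against PAM is 20 nt long. The longest exact match of any probe, on either strand, to an Fn1 region was 9 nt in each pool, and to the whole gene 11 nt. Over all regions the longest match was 13 nt in each list, which searches many more regions than Fn1 has. The median of the longest match per region was 7 nt at Fn1 and 7 nt over the odd list. In the even pool these medians were 7.5 nt and 8 nt.

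The nearest odd regions outside the gene were 1172 kb upstream, at Igfbp2 with a score of 6, and 4754 kb downstream, at Acadl with a score of 4. For the even pool the distances were 2744 kb upstream, to Ctdsp1 (score 4), and 6591 kb downstream, to Rpl10a-ps1 (score 7). In both lists, the regions of Fn1 were thus at least 1172 kb from the next region.

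Among protein-coding genes, 6.46% had an odd region in their span and 0.996% an even region. The median gene with an odd region had 1, and Fn1 had the most in both pools, 26 and 10, as well as the most shared loci. Gm20388 came next in the odd pool with 11 regions, only 1 of them on its own exons. Per kb of spliced length Fn1 had 3.13 odd regions, which ranked 5 among the 80 genes with at least 3 odd regions. The genes most like Fn1 were sought among the 156 genes with regions in both pools, by the distance over percentile ranks of 4 quantities, the number of regions and the highest score in each pool. They were Col3a1 at a distance of 10.87, Actb at 17.6, Hsp90ab1 and Vim at 20.03 each, and Scd2 at 28.9.

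**Figure D5:**
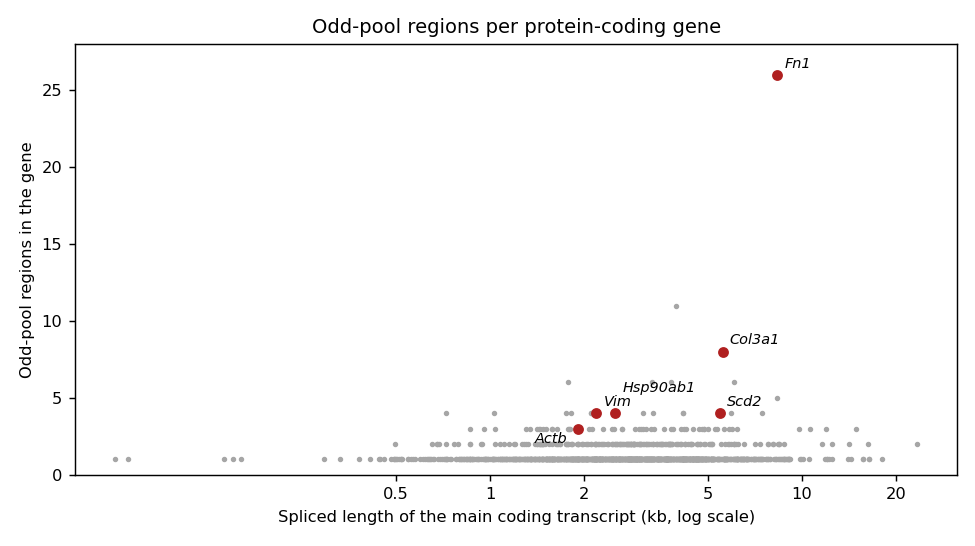
Number of odd-pool regions in each protein-coding gene with at least 1 against the spliced length of its main coding transcript in kb (log scale), with Fn1 and the 5 genes most like it in red. Fn1 stands at 26 regions, Col3a1 at 8 and the other 4 at 3 or 4.

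Col3a1, which encodes the chain of type III collagen, had 8 odd regions, all on exons, and 4 even regions. Its odd scores were 12, 12, 9 and 12 on exons 1, 2, 20 and 39, and 53, 39, 42 and 46 on exons 48 to 51, so the last 4 were the highest. The other genes most like Fn1 did not share one order along the transcript. Odd scores from 5′ to 3′ were 53, 26, 31 and 28 for Vim and 32, 26, 22 and 28 for Hsp90ab1, both highest at the region nearest the 5′ end. Those of Actb were 34, 66 and 60, and those of Scd2 were 8, 6, 26 and 26. Most internal exons of Col3a1 are short. Of the 44 below 132 bp, 1 held an odd region, and of the 5 longer ones all did. Over the other genes with at least 3 odd regions, an odd region was on 2.47% of 608 internal exons below 132 bp, on 14.9% of 329 from 132 to below 200 bp, and on 42.4% of 165 longer ones. For the internal exons of Fn1 these counts were 0 of 16, 18 of 22 and 6 of 6. The 0 was fixed, because the limit of 132 bp is the length of the shortest Fn1 exon with an odd region. In other genes, too, longer internal exons held an odd region more often. These shares are per exon and not per base, and a longer exon has more bases on which a midpoint can fall. The difference in level was not tested, because the gene was chosen for its regions.

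Genes that act with fibronectin were counted by lists chosen with earlier results of these data known. Of 12 fibronectin receptors, 5 had an odd region and 2 an even region, against 6.46% and 0.996% of all protein-coding genes. Itgb1, the shared beta chain of many fibronectin-binding integrins, had 6 odd regions, all on exons, with scores of 5, 5, 10, 8, 20 and 15 in the order of the transcript. Itga5, its partner in the main fibronectin receptor, had 1 odd region with a score of 7. The syndecans Sdc2 and Sdc4, heparan sulfate proteoglycans that bind fibronectin, had 4 and 1 odd regions, each with a highest score of 11. Itgb5, another integrin beta chain, had 2 odd regions with a highest score of 7, and Itgb3 had an even region with a score of 5 and no odd region.

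Of 16 adaptors and signalling proteins of adhesion sites, 9 had an odd region and 1 an even region, beside the same 6.46% and 0.996% over all protein-coding genes. Zyx, a focal adhesion protein, had 3 odd regions with a highest score of 27, and Flna, an actin crosslinker, had 5 with a highest score of 14. Flna has 47 exons and the same spliced length as Fn1, 8312 nt. Vcl and Tln1, which couple integrins to actin, had 1 odd region each, with scores of 11 and 8.

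Of 20 matrix partners, 14 had an odd region and 5 an even region, where the shares over all protein-coding genes were 6.46% and 0.996%. Sparc, a matricellular protein, had the highest odd score of this list, 72, followed by Col3a1 with 53, Col1a2, a chain of type I collagen, with 38, and Thbs1, thrombospondin, with 29. Fbn1, the fibrillin whose fibrils form on fibronectin, had 3 odd regions over 65 exons with a highest score of 12. Of 12 matrix proteases and their inhibitors, 5 had an odd region and 1 an even region, again beside 6.46% and 0.996%. Timp2, an inhibitor of matrix metalloproteinases, had 1 odd region with a score of 31 and 1 even region with a score of 13, which did not overlap. Mmp14 had 1 odd region with a score of 12, Mmp2 had 1 with 11 and Plau had 1 with 8. No gene of these lists approached the 26 odd regions of Fn1, the nearest being Col3a1 with 8. Every odd region in a listed gene had its midpoint on an exon, beside 79.5% of all odd regions inside and outside genes.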

How the data were processed

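PAM ChIRP-seq of ASCs gave 1 library for the odd probes and 1 for the even probes. Per the study's methods, Bowtie2 placed the reads on mm9, keeping unique alignments, and MACS2 found the peaks (versions not given in the sources used here). The deposited tables give regions and the authors' score, whose unit is not stated. The paper reports a set of PAM-bound regions that is smaller than either list. The Fn1 regions were not compared with that set. At Fn1 the regions are 254 bp (odd) or 248 bp (even) wide. Read depth is unknown. The first coordinate was taken as 0-based, and starts are printed 1-based. Regions were intersected with GENCODE M1 by at least 1 bp and assigned to exons by their midpoint. The main transcript is that with the longest coding sequence. Copies of each 31-mer were counted in mm9 on both strands, and probe sequences came from the study's oligo list. Fn1, all gene lists and the naming rule were chosen with earlier results of these data known. The rule names Fn1, up to 4 genes per list by highest odd score, and the 5 genes most like Fn1. Itga5, Itgb3, Fbn1, Gm20388, the genes nearest to Fn1 and the exon length limits of 132 and 200 bp were chosen after their values were seen. Exon mapping was tested on simulated data. Tools were samtools 1.23.1, matplotlib 3.10.9, numba 0.67.0, pandas 2.3.3, SciPy 1.17.1, NumPy 2.4.6 and Python 3.11.15.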

Additional observations from a re-analysis of the deposited data

How the results depend on the processing

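No paired analysis was possible because there is only 1 library of each pool, and leaving it out would leave no value. Over 7 results, 26 alternatives were run. The 26 odd and 10 even regions at Fn1 did not change in number when regions at the lowest score or below the median of their list were left out, when the midpoint had to lie in the gene, when the gene was extended by 2000 bp, or when starts were read as 1-based. All of them also remained on exons under the other rules for exons. The score filters and the extension could not change the counts. The lowest scores at Fn1, 7 (odd) and 5 (even), are not below the list medians of 6 and 5. Both exceed the lowest score of the lists, 4, and the next region lies at least 1172 kb away. The covered share of the transcript was 59.0% over all exons in place of 59.2%. The loci covered by both pools were 7 with a reciprocal overlap of 50% in place of 8. With regions paired within 1000 bp, 13 odd-even pairs were counted. Such pairs can join regions on neighbouring exons that do not overlap, and 1 region can enter several pairs. The 13 is thus not a number of loci covered by both pools. The odd regions toward the 3′ end were 11 downstream of the transcript's midpoint and 6 in the third nearest the 3′ end. These last changes follow from the wider distance and the shorter stretch. How region numbers and scores depend on sequencing depth was not tested, since no depth is given.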
